A study of Homo sapiens with 18 samples.

Results

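ATF4 and 9 regulators that act with it or downstream of it in the integrated stress response were followed across tumours dosed with DS55980254, an inhibitor of the phosphatidylserine synthase PTDSS1. The 10 genes, ATF4, ATF5, CEBPG, CEBPB, ATF3, DDIT3, TRIB3, PPP1R15A, DDIT4 and SESN2, were taken by symbol from gene tables holding 25343 genes. All 10 were present and all 10 passed the filter on low counts, which left 14074 genes for testing. The tumours were xenografts of HCT116, a human colon cancer line, carrying a knockout of PTDSS2, the other phosphatidylserine synthase. Every group carried the knockout, so no group shows the response of a line with PTDSS2 intact. Mice received the compound by mouth at 10 or 30 mg/kg in 0.5% methylcellulose, or the vehicle alone, and tumours were taken 24 hours later. Each group held 6 libraries, 18 in all. The labels do not say whether the libraries of a group came from separate mice or whether the knockout is 1 clone. The p-values therefore measure the spread between these samples. The labels give no age or strain for the mice.

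As background, the integrated stress response starts when kinases that sense amino acid shortage, endoplasmic reticulum stress, viral RNA or haem shortage phosphorylate the translation factor eIF2. Most translation then slows, while ATF4, whose leader holds upstream reading frames, is translated more. ATF4 pairs with C/EBP family proteins and switches on amino acid transport, amino acid synthesis and further regulators. Some of these, such as TRIB3 and PPP1R15A, damp the response again. ATF4 is therefore controlled largely at translation, which RNA counts do not measure.

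Total counts of 17 libraries ran from 3435423 to 8538792, while 10 mg/kg replicate 2, called the shallow library, had 433981. Its mean correlation with the other libraries, on the log2 scale across genes, was 0.71, against 0.94 to 0.954 for the rest. The summed levels of fibroblast, endothelial, leukocyte and erythroid markers were also highest in that library. Fibroblast markers summed to 317 CPM there and at most 109 CPM elsewhere, and leukocyte markers to 72.7 CPM there and at most 18.6 CPM elsewhere. CPM are counts scaled to library size after normalisation. The part of these markers in the members' values was not tested, and the 10 mg/kg folds of the 10 regulators are given with and without that library. Colon carcinoma markers summed to 4158 CPM in that library, the lowest of the 18, and to between 5223 and 7453 CPM in the others. PTDSS2 still had reads in all 18 libraries, with 8.75 ± 2.30 CPM (SD, n = 6) in vehicle tumours. Since all groups carry the knockout, that level does not check the group labels. PTDSS1, the target of the compound, averaged 76.8 CPM in vehicle libraries, with log2 fold changes of -0.23 and -0.18 that did not pass (edgeR adjusted p = 0.379 and 0.62).

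In vehicle tumours, ATF4 was the most abundant of the 10 on the length-scaled TPM measure at 533 ± 67.8 TPM (SD, n = 6). That level exceeded those of 98.5% of the genes tested. DDIT4 followed at 135 ± 24.0 TPM, PPP1R15A at 82.0 ± 12.7 TPM and CEBPB at 50.3 ± 5.00 TPM. The vehicle libraries of these 4 genes did not overlap those of the next gene in the order. The other 6 lay from 29.5 TPM for DDIT3 through CEBPG, ATF5, TRIB3 and ATF3 to 13.4 TPM for SESN2. Neighbours among those 6 overlapped between vehicle libraries, so the order of neighbours was not resolved, while every vehicle library of DDIT3, CEBPG, ATF5 and TRIB3 lay above those of SESN2, and CEBPG above ATF3. The middle of the set lay near the middle of all genes tested, with CEBPG above 57.6% and TRIB3 above 46.7% of them.

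Of the 10 regulators, TRIB3 and CEBPG rose at both doses. At 10 mg/kg 2 of the 10 were called higher at an adjusted p under 0.05 (edgeR's quasi-likelihood test, Benjamini-Hochberg adjustment over all genes tested), against 0.419% of all genes. At 30 mg/kg 2 of the 10 were called higher, against 0.568% of all genes. None of the 10 was called lower at either dose, and 0.0497% of all genes were called lower at each. The median log2 fold change of the 10 was 0.40 at 10 mg/kg (0.37 without the shallow library) and 0.43 at 30 mg/kg, beside -0.01 and -0.0011 over all genes tested. Estimates lay above 0 for 9 of the 10 at 10 mg/kg and for 10 of the 10 at 30 mg/kg, against 48.8% and 49.8% of all genes. The 10 were chosen with earlier results of these data known, so their counts beside the shares of all genes carry no test. Both doses were compared with the same 6 vehicle libraries. In whole tumours, fewer cells of a type and less RNA per cell cannot be told apart.

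**Figure D1:**
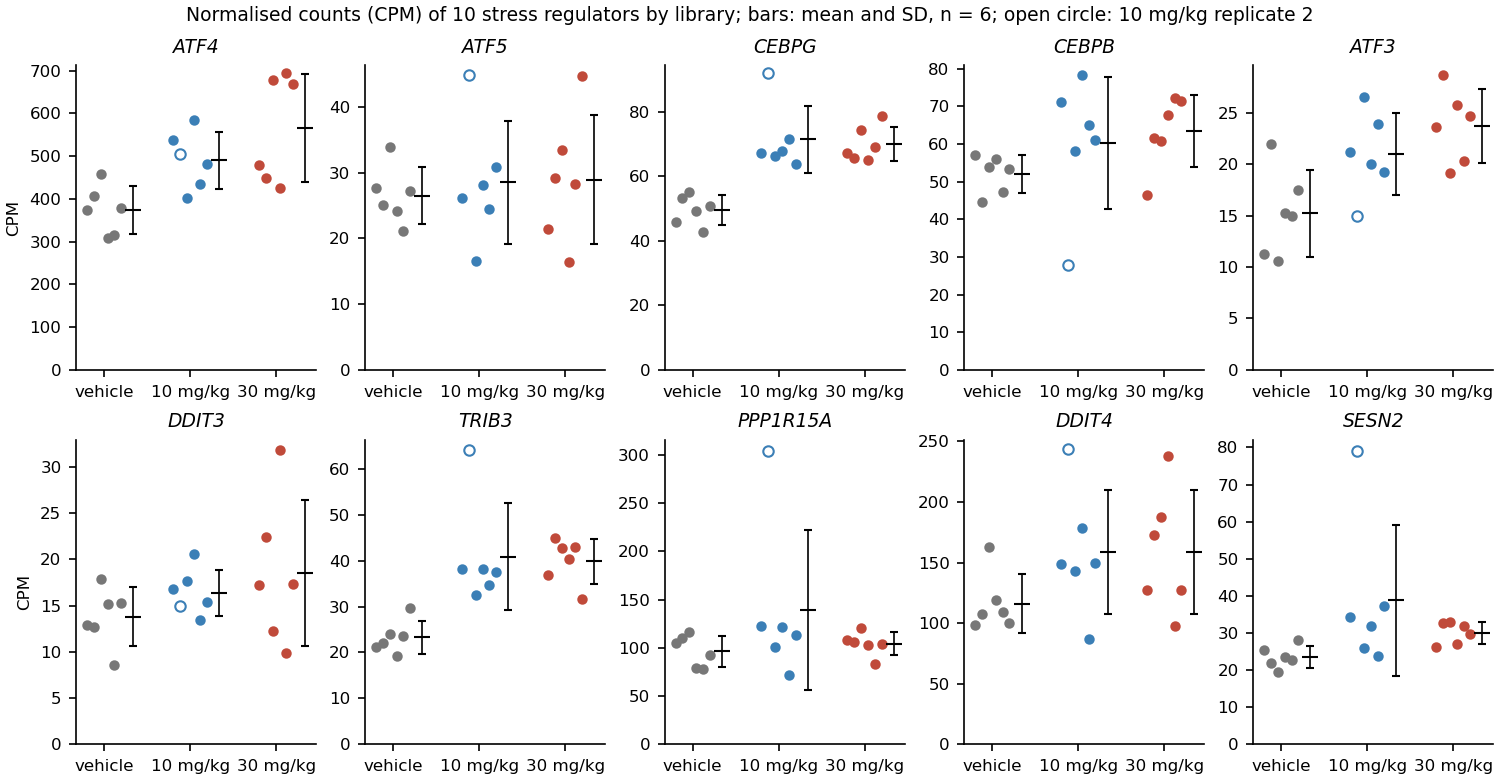
Normalised counts (CPM, vertical axis from 0) of the 10 regulators in each library of vehicle, 10 and 30 mg/kg tumours, with the mean and SD of 6 libraries as bars and the shallow 10 mg/kg replicate 2 as an open circle. TRIB3 and CEBPG are the 2 genes in which every treated library lies above every vehicle library.

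TRIB3 encodes a pseudokinase that is induced by ATF4 and restrains its activity. Its 6 vehicle libraries ran from 19.3 CPM through a median of 22.7 to 29.8 CPM. The 10 mg/kg libraries ran from 32.5 through 37.9 to 64.2 CPM, and the 30 mg/kg libraries from 31.7 through 41.6 to 44.9 CPM. Every treated library was thus above the highest vehicle library, and the highest value, 64.2 CPM, was the shallow library. Without it the 10 mg/kg libraries ended at 38.3 CPM, and 4 of 6 libraries at 30 mg/kg lay above them. TRIB3 rose 1.65-fold at 10 mg/kg (log2 0.72 ± 0.14 SE, edgeR adjusted p = 0.0153). At 30 mg/kg it rose 1.71-fold (log2 0.78 ± 0.14 SE, edgeR adjusted p = 0.00307). With the shallow library left out the fold at 10 mg/kg was 1.56 (edgeR adjusted p = 0.00601). When the 10 mg/kg and vehicle libraries were fitted alone, its adjusted p at 10 mg/kg was 0.0534.

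CEBPG encodes a C/EBP protein that lacks an activation domain of its own and pairs with ATF4. Its vehicle libraries ran from 42.7 through a median of 50.0 to 55.3 CPM. The 10 mg/kg libraries ran from 64.0 through 67.6 to 92.0 CPM, and the 30 mg/kg libraries from 65.2 through 68.2 to 78.6 CPM. No treated library overlapped vehicle at either dose, and the highest value was again the shallow library. CEBPG rose 1.40-fold at 10 mg/kg (log2 0.49 ± 0.10 SE, edgeR adjusted p = 0.0194) and 1.41-fold at 30 mg/kg (log2 0.50 ± 0.10 SE, edgeR adjusted p = 0.00872). Without the shallow library the 10 mg/kg fold was 1.36 (edgeR adjusted p = 0.0107), and 2 of the 10 were still called higher at that dose, against 0.742% of all genes. The call at 10 mg/kg was lost without vehicle replicate 1 or without vehicle replicate 5, and its adjusted p reached 0.0738 over the 18 libraries left out in turn. With the 10 mg/kg and vehicle libraries fitted alone, its adjusted p was 0.055.

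The share of all genes whose groups did not overlap, with the treated group higher, was 0.689% at 10 mg/kg and 1.25% at 30 mg/kg. TRIB3 and CEBPG were the 2 of the 10 with this separation at each dose. Without the shallow library, CEBPB joined them at 10 mg/kg, making 3 of the 10 against 1.31% of all genes.

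The sequence before the start of 4 regulators is shown because CEBPG, ATF3 and PPP1R15A hold a match to a site for ATF or C/EBP proteins there, and TRIB3, which rose most, holds none. Each line gives 200 bases ending at the base before a RefSeq start (GRCh38.p14, 5′ to 3′, plus strand), with motif matches in capitals. They are chr19:33373913-33374112 for the second start of CEBPG, chr20:381095-381294 for the first start of TRIB3, chr1:212565207-212565406 for the first start of ATF3 and chr19:48872221-48872420 for PPP1R15A.
CEBPG: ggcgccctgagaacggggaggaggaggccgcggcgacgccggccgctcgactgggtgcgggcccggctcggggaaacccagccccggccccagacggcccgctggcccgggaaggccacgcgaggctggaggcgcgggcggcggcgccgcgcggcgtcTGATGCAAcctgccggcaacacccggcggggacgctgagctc
TRIB3: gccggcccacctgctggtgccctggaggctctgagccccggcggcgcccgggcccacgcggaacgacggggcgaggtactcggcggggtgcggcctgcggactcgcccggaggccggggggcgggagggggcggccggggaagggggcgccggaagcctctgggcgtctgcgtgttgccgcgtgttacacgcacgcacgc
ATF3: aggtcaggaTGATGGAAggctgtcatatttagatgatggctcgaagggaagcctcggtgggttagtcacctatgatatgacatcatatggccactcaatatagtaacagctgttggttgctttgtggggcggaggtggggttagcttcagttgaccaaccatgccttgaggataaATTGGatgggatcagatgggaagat
PPP1R15A: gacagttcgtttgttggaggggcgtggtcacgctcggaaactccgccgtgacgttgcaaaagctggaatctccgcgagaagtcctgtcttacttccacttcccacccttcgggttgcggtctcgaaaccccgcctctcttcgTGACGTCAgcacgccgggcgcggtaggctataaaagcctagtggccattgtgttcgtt

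The search covered both strands from 250 bases before to 50 bases after each start, in 19 windows of the 10 genes. The composite C/EBP-ATF element was searched as TGATGNAA. CEBPG held it as TGATGCAA at -42 to -35 from its second start. ATF3 held it as TGATGGAA at -191 to -184 from its first start. The other window of each of these genes held no such match, and which start these tumours used was not tested. The element occurred in 3.62% of all 35116 windows of that length and in 4.46% of the 27305 genes that they belong to. The cyclic AMP response element TGACGTCA was found in PPP1R15A at -58 to -51, and in 1.85% of all windows and 2.25% of those genes. The AP-1 site TGANTCA was found in ATF5 and DDIT3, and in 7.71% of all windows and 9.37% of those genes. The CCAAT box lay in CEBPG, CEBPB, ATF3, DDIT3, DDIT4 and SESN2. It lay in 34.6% of all windows and 39.7% of those genes, so its presence is common. The windows of ATF4 and TRIB3 held no match to any of these motifs. Within these windows a match to TGATGNAA was therefore found in 1 of the 2 genes that rose. Sequence outside the windows was not searched, so a missing match does not show that a gene lacks such a site.

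ATF4 itself, the central activator, ran in vehicle libraries from 309 CPM through a median of 376 to 458 CPM. Libraries given 10 mg/kg ran from 402 through 493 to 584 CPM, and at 30 mg/kg from 426 through 573 to 693 CPM. Vehicle and treated libraries overlapped, with 4 of 6 libraries at each dose above the highest vehicle library, or 3 of 5 at 10 mg/kg without the shallow one. The shallow library had 505 CPM on 236 reads, but in the deposited TPM the lowest ATF4 value of all 18, 400.9 TPM against a vehicle minimum of 449.5 TPM. The fold of ATF4 was 1.31 at 10 mg/kg (edgeR adjusted p = 0.347, and 0.303 at the same fold without that library) and 1.51 at 30 mg/kg (edgeR adjusted p = 0.052). Neither passed, and at 30 mg/kg the log2 estimate of 0.60 had a 95% interval from 0.32 to 0.88. Without the shallow library, which is no part of that comparison but enters the shared spread, the 30 mg/kg adjusted p was 0.0283. Over 31 alternatives ATF4 passed in 11 at 30 mg/kg and in 0 at 10 mg/kg. The genome also holds processed pseudogenes of ATF4, and how reads shared with them were counted is not stated, so its level is uncertain to that extent.

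The 30 mg/kg libraries of ATF4 lay in 2 separate ranges. Replicates 3, 5 and 6 had 677, 693 and 668 CPM, above every library of the other groups. Replicates 1, 2 and 4 had 479, 448 and 426 CPM, within the range of the 10 mg/kg libraries. TRIB3 did not follow that split, since replicate 6 had the lowest TRIB3 level of the 30 mg/kg group at 31.7 CPM and replicate 2 the highest at 44.9 CPM. CEBPG did, with 74.4, 69.0 and 78.6 CPM in replicates 3, 5 and 6 and at most 67.4 CPM in the other 3. In that group replicates 3, 5 and 6 also had the lowest sums of 15 hypoxia genes, at 2140, 1189 and 1625 CPM. Replicates 1, 2 and 4 had 2293, 2346 and 3072 CPM. In the other groups the highest ATF4 level fell with the highest hypoxia sum instead. Vehicle replicate 3 had 458 and 2795 CPM, and 10 mg/kg replicate 4 had 584 and 2822 CPM. The cause of the split was not tested. With a hypoxia score as a covariate, added after the data were seen, the ATF4 estimate at 30 mg/kg was log2 0.55 in place of 0.60 (edgeR adjusted p = 0.0868).

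ATF5, an activator related to ATF4 and likewise controlled at translation, ran from 21.1 to 33.9 CPM in vehicle libraries. It ran from 16.5 to 44.9 CPM at 10 mg/kg and from 16.4 to 44.7 CPM at 30 mg/kg. The 44.9 CPM was the shallow library, on 21 reads. Without it the 10 mg/kg libraries ended at 30.9 CPM, so 0 of 5 lay above the vehicle range, while the 30 mg/kg libraries reached to both sides of it. Its log2 estimate at 30 mg/kg was 0.12 ± 0.20 SE (edgeR adjusted p = 0.972). The estimate at 10 mg/kg was -0.0017, with a 95% interval from -0.40 to 0.40, and -0.07 without the shallow library. ATF5 shares 599 bases with NUP62 and IL4I1 in the reference annotation, and the sources used here do not say whether the counting used strand.

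**Figure D2:**
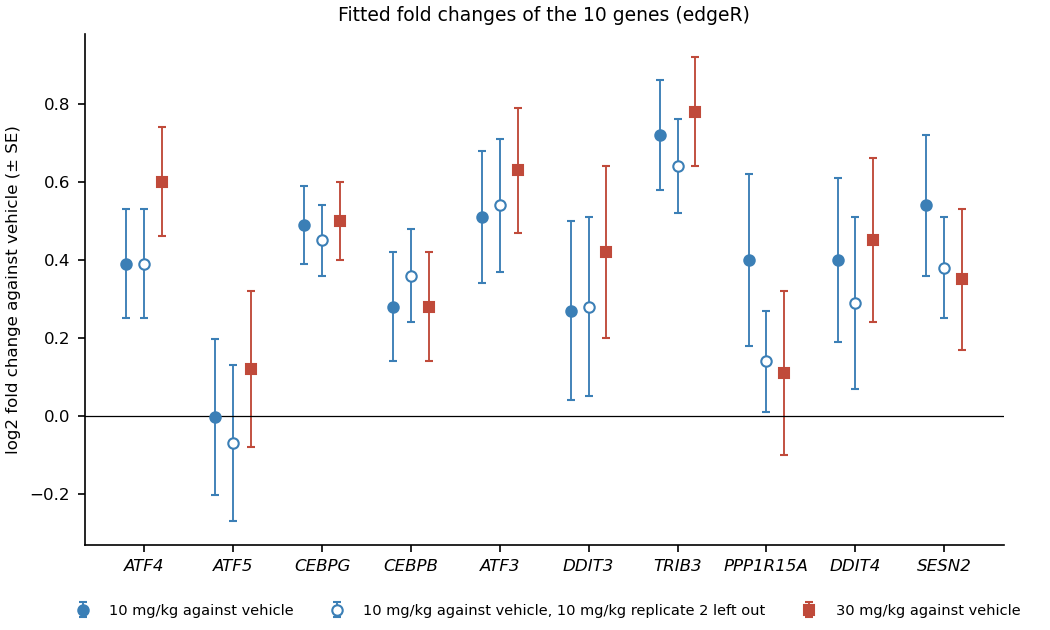
Fitted log2 fold changes against vehicle with SE (vertical axis) for the 10 regulators at 10 mg/kg, at 10 mg/kg without replicate 2, and at 30 mg/kg. Estimates at 30 mg/kg run from 0.11 for PPP1R15A to 0.78 for TRIB3, and the largest move on leaving out the shallow library is in PPP1R15A, from 0.40 to 0.14.

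CEBPB, a C/EBP activator that pairs with several of these factors, ran from 44.5 to 57.2 CPM in vehicle libraries, with a median of 53.6 CPM. Those given 10 mg/kg ran from 27.8 through 63.2 to 78.4 CPM, and at 30 mg/kg from 46.4 through 64.7 to 72.3 CPM. In each dose group 5 of 6 libraries lay above the highest vehicle library. The exception at 10 mg/kg was the shallow library, whose value rested on 13 reads, and at 30 mg/kg it was replicate 1. The folds were 1.22 and 1.21 (edgeR adjusted p = 0.544 and 0.655). Without the shallow library the fold at 10 mg/kg was 1.28 (edgeR adjusted p = 0.184). CEBPB shares 1487 bases with the antisense gene CEBPB-AS1 in the reference annotation.

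ATF3, a repressor and early stress gene, ran from 10.6 through a median of 15.1 to 22.0 CPM in vehicle libraries. It ran from 15.0 through 20.6 to 26.5 CPM at 10 mg/kg and from 19.1 through 24.1 to 28.7 CPM at 30 mg/kg. Vehicle and 10 mg/kg libraries overlapped. At 30 mg/kg the overlap came from vehicle replicate 2, at 22.0 CPM, and 4 of 6 libraries lay above it. The folds were 1.42 at 10 mg/kg (edgeR adjusted p = 0.288) and 1.55 at 30 mg/kg (edgeR adjusted p = 0.0935). Without the shallow library, in which ATF3 had 7 reads, the fold at 10 mg/kg was 1.45 (edgeR adjusted p = 0.157) and the adjusted p at 30 mg/kg was 0.0415. ATF3 then counts with ATF4, TRIB3 and CEBPG among 4 of the 10 called higher at 30 mg/kg, against 0.983% of all genes.

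DDIT3 encodes CHOP, a C/EBP family partner tied to cell death in prolonged stress. Vehicle libraries ran from 8.58 through a median of 14.1 to 17.9 CPM. The 10 mg/kg libraries ran from 13.4 through 16.1 to 20.6 CPM, and the 30 mg/kg libraries from 9.86 through 17.2 to 31.8 CPM. The 30 mg/kg group thus held both the highest value of all 18 libraries, in replicate 4, and one near the lowest, in replicate 5. The folds of 1.20 and 1.34 did not pass (edgeR adjusted p = 0.749 and 0.69), and the 10 mg/kg fold was 1.21 without the shallow library (edgeR adjusted p = 0.762). In the reference annotation DDIT3 shares 2769 bases with the protein-coding LOC128125814, 97 with MIR616 and 65 with MARS1, a tRNA synthetase gene that rose at 30 mg/kg. The part of these overlaps in its counts was not tested.

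PPP1R15A encodes GADD34, which directs a phosphatase to eIF2 and so ends the response. Vehicle libraries ran from 77.7 through a median of 98.4 to 116 CPM. The 30 mg/kg libraries ran from 83.5 through 105 to 120.5 CPM and overlapped vehicle nearly throughout. The 10 mg/kg libraries ran from 72.0 through 118 to 304 CPM, and the 304 CPM was the shallow library. Its fold of 1.32 at 10 mg/kg (edgeR adjusted p = 0.584) was 1.10 without that library (edgeR adjusted p = 0.795), and 1.08 at 30 mg/kg (edgeR adjusted p = 0.982).

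SESN2 and DDIT4 encode inhibitors of the growth kinase complex mTORC1, which ATF4 can induce. SESN2 ran from 19.5 through a median of 23.1 to 28.1 CPM in vehicle libraries and from 26.1 through 30.7 to 33.0 CPM at 30 mg/kg. The 10 mg/kg libraries ran from 23.9 through 33.1 to 79.1 CPM, with the shallow library highest. In each dose group 4 of 6 libraries lay above the highest vehicle library, or 3 of 5 at 10 mg/kg without the shallow one. Its fold was 1.45 at 10 mg/kg (edgeR adjusted p = 0.301), 1.30 there without the shallow library (edgeR adjusted p = 0.243), and 1.27 at 30 mg/kg (edgeR adjusted p = 0.676).

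DDIT4 ran from 98.5 through a median of 108 to 163 CPM in vehicle libraries. The 10 mg/kg libraries ran from 87.1 through 149.6 to 244 CPM and the 30 mg/kg libraries from 97.2 through 150.2 to 238 CPM. Both treated groups therefore spanned the vehicle range from below to above. The folds were 1.32 and 1.36 (edgeR adjusted p = 0.57 and 0.585). The 244 CPM was the shallow library, without which the 10 mg/kg libraries ended at 178.6 CPM and the fold was 1.22 (edgeR adjusted p = 0.742). DDIT4 is also a textbook hypoxia gene, and most of its extreme values fell in the libraries with extreme levels of other hypoxia genes. In vehicle tumours replicate 3 was highest in both, with 163 CPM of DDIT4 and 2795 CPM summed over 15 hypoxia genes. At 30 mg/kg replicate 4 was highest in both, at 238 and 3072 CPM, and replicate 5 lowest in both, at 97.2 and 1189 CPM. At 10 mg/kg replicate 5 was lowest in both, at 87.1 and 1288 CPM. The shallow library was an exception, with the highest DDIT4 level, 244 CPM, and a hypoxia sum of 1976 CPM. The lowest vehicle values were another, in replicate 1 for DDIT4 and replicate 2 for the sum. None of the 15 hypoxia genes passed at either dose. With the mean log2 CPM of 14 hypoxia genes (VEGFA left out, as ATF4 can also induce it) as a covariate, added after the data were seen, the SE of DDIT4 at 30 mg/kg was 0.15 in place of 0.21, and its log2 estimate 0.53 in place of 0.45 (edgeR adjusted p = 0.136). DDIT3 in the same fit had 0.48 ± 0.17 SE in place of 0.42 ± 0.22 SE (edgeR adjusted p = 0.333). The score came from the same tumours, running from 5.72 to 6.12 in vehicle and from 4.69 to 6.38 at 30 mg/kg. The part of hypoxia in the spread of DDIT4 or DDIT3 was not tested.

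**Figure D3:**
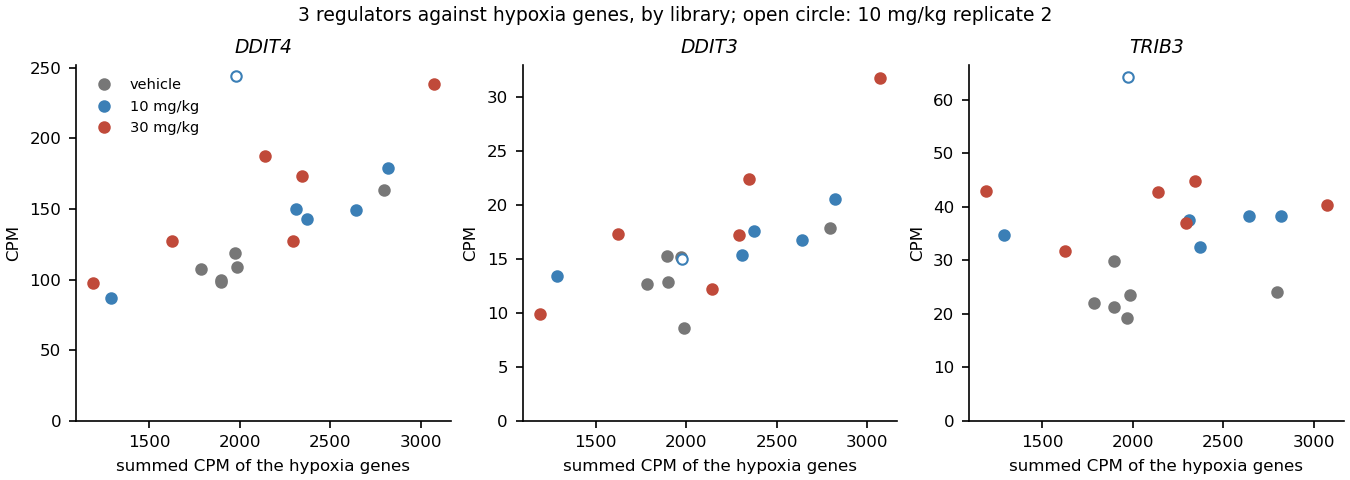
CPM of DDIT4, DDIT3 and TRIB3 (vertical axes from 0) against the summed CPM of 15 hypoxia genes (horizontal axes) in each of 18 libraries, with 10 mg/kg replicate 2 as an open circle. DDIT4 and DDIT3 are highest or lowest in the 30 mg/kg libraries with the highest (3072 CPM) and lowest (1189 CPM) hypoxia sums, while TRIB3 in those 2 libraries is 40.3 and 43.0 CPM.

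Between the doses no gene passed. The edgeR test of 30 against 10 mg/kg called 0 of the 10 and 0 of all genes, and DESeq2 and limma-voom with sample weights also called 0. An edgeR unadjusted p under 0.05 was reached by 496 of 14074 genes. These were 1.66% of all genes on the higher side and 1.86% on the lower. The log2 difference of TRIB3 was 0.06 with a 95% interval from -0.21 to 0.33, and that of CEBPG 0.01 with an interval from -0.18 to 0.20. For ATF4 it was 0.21, from -0.07 to 0.48, and for ATF3 0.12, from -0.20 to 0.45. PPP1R15A had the lowest estimate, -0.29, which was -0.03 without the shallow library. These intervals leave room for differences between the doses in either direction. In a fit of a straight line over the 3 dose steps, TRIB3 had a slope of 0.38 ± 0.08 SE on the log2 scale per step (edgeR adjusted p = 0.0193) and CEBPG 0.25 ± 0.06 SE (edgeR adjusted p = 0.0401). That made 2 of the 10, against 0.441% of all genes. The trend call of CEBPG was lost in 13 of 18 fits that left out 1 library, and that of TRIB3 in the 5 that left out vehicle replicate 1, 2, 3, 4 or 5.

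**Figure D4:**
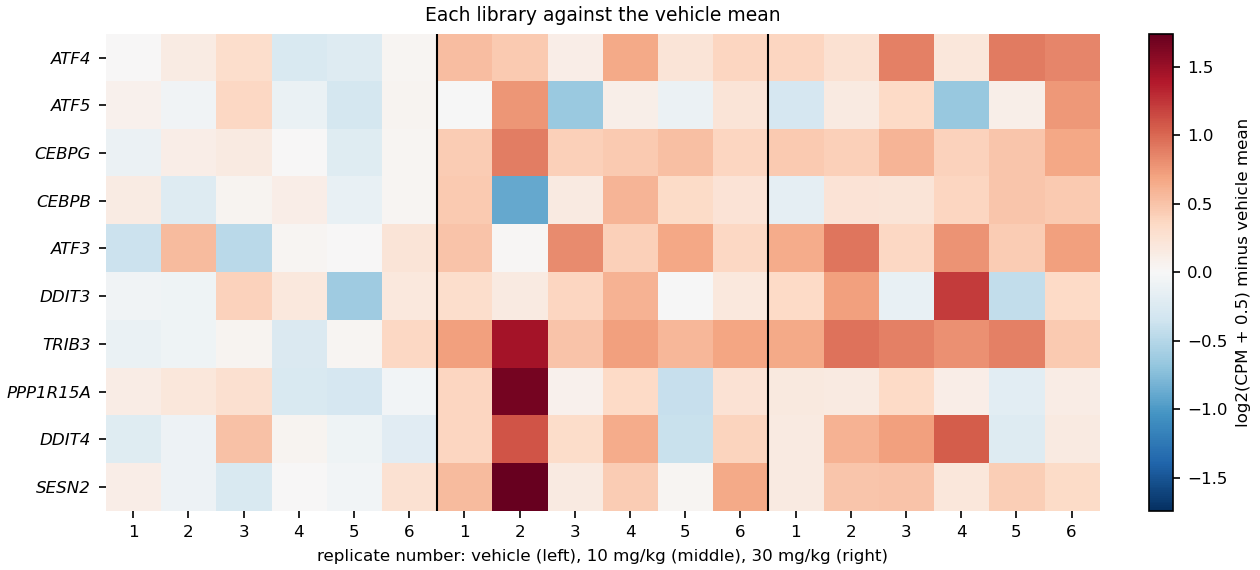
Difference of each library from the vehicle mean, on the log2(CPM + 0.5) scale (colour), for the 10 regulators (rows) in the 18 libraries (columns, 6 per group). TRIB3, CEBPG, ATF4, ATF3 and SESN2 are above the vehicle mean in all 12 treated libraries, and the share of all genes that are was not counted. The smallest of these differences are 0.02 for ATF3 in 10 mg/kg replicate 2, on 7 reads, and 0.03 for SESN2 in 10 mg/kg replicate 5. Within its group, 10 mg/kg replicate 2 is the highest in TRIB3, CEBPG, ATF5, PPP1R15A, DDIT4 and SESN2. It is the lowest in CEBPB, at -0.89, and in ATF3.

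Likeness over the 18 libraries was described by Spearman's rho of log2(CPM + 0.5) against 12554 other genes with a mean of at least 5 CPM. The libraries share group and depth differences, so these values carry no test. Among the 10, the order of ATF4 was most like that of CEBPG (rho 0.81, rank 95), followed by TRIB3 (0.70) and SESN2 (0.66). It was least like those of DDIT3 (0.08) and ATF3 (0.18). TRIB3 was most like SESN2, with rho 0.80 and rank 18. Within these 10 genes, DDIT3 was most like DDIT4 (0.55) and ATF3 (0.47). Over all genes the closest to ATF4 were TPM4 (0.97), CRABP2 and MPC2 (both 0.94), and MYH9 and MYH14 (both 0.92). TPM4, MYH9 and MYH14 encode a tropomyosin and 2 non-muscle myosin chains. The closest to TRIB3 were SMOX (0.89), GCC1 (0.88), FHL2 (0.86), CETN2 and CPEB4 (both 0.85). Those closest to CEBPG were PRDX5 (0.89), SPATA31G1 (0.88), IL20RB, TNKS1BP1 and LIPH (each 0.87). For DDIT3 they were RSF1 and FOXC1 (both 0.86), TIPARP (0.80), CDK17 (0.78) and CDCP1 (0.77).

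Upstream start codons can let a leader respond to eIF2 phosphorylation. Every ATG before the annotated start was counted in reference transcripts (GENCODE v29), and which of them act in this way was not tested. The 2 matched ATF4 transcripts held 3 and 7 upstream ATGs, with 1 and 2 reading frames running into the coding sequence. ATF5 held 2 and 6, CEBPG 5 and 3, DDIT3 4 and 3, PPP1R15A 2, TRIB3 3 and SESN2 1. The 5 matched ATF3 transcripts held 0 to 5. Frames running into the coding sequence were also found in both ATF5 transcripts, in 2 of the 5 of ATF3 and in 1 of the 2 of DDIT3. The matched transcripts of DDIT4 and CEBPB held 0. Upstream ATGs were found in 60.1% and overlapping frames in 25.1% of 12598 genes counted the same way, so their presence is common. These features concern translation, which was not measured.

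The other genes of the pathway were read from lists of known effectors. These lists were chosen with earlier results of these data known, so their counts beside the shares of all genes carry no test. Of 29 listed ATF4 effectors 26 passed the filter on low counts, with a median log2 fold change of 0.23 at 10 mg/kg (0.29 without the shallow library) and 0.36 at 30 mg/kg. At 10 mg/kg 1 rose and at 30 mg/kg 4 rose, against 0.419% and 0.568% of all genes, and 0 fell at either dose. CHAC1, which degrades glutathione, ran from 1.23 to 2.74 CPM in vehicle, 4.28 to 10.1 CPM at 10 mg/kg and 4.03 to 14.0 CPM at 30 mg/kg, with no overlap between vehicle and treated libraries. It rose 2.98-fold and 3.64-fold (edgeR adjusted p = 0.0149 and 0.00124), on 2 to 67 reads per library. SLC7A11, the cystine importer, rose 2.06-fold at 30 mg/kg, ASNS, asparagine synthetase, 1.80-fold, and SLC6A9, a glycine transporter, 1.73-fold (edgeR adjusted p = 0.00126, 0.00426 and 0.0363). Of 12 tRNA synthetases linked to ATF4, 0 rose at 10 mg/kg and 3 at 30 mg/kg, namely GARS1 at 1.52-fold, AARS1 at 1.43-fold and MARS1 at 1.40-fold (edgeR adjusted p = 0.00744, 0.0198 and 0.0202). With each of the 18 libraries left out in turn, the 30 mg/kg calls of SLC6A9, AARS1 and MARS1 held in 8, 12 and 14 fits, and those of CHAC1, SLC7A11, ASNS and GARS1 in all 18. Without the shallow library the numbers that rose were 4 and 6 effectors, and 3 and 5 synthetases, at 10 and 30 mg/kg. The shares of all genes called higher in that fit were 0.742% and 0.983%.

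With 0.419% and 0.568% of all genes called higher at the 2 doses, counts of 0 in short lists next to the pathway lie near the background. None of 18 eIF2 kinase and eIF2 machinery genes or 18 genes of the ATF6 and XBP1 arms of the unfolded protein response passed at either dose. The same held for the 8 listed paralogs of the regulators, the 21 listed mTORC1 control genes and the 18 listed p53 targets. None of 17 other ATF, CREB and C/EBP factors passed either; CREB5 had a fold of 3.21 at 10 mg/kg (edgeR adjusted p = 0.0551) and passed without the shallow library, at 2.74-fold (edgeR adjusted p = 0.034). EIF2AK3, the kinase PERK, had folds of 1.22 and 1.17 (edgeR adjusted p = 0.579 and 0.814), and HERPUD1, of the ATF6 and XBP1 list, 1.20 and 1.23 (0.492 and 0.428). SESN1, the p53-controlled paralog of SESN2, had estimates below 0, with folds of 0.809 and 0.765 (edgeR adjusted p = 0.54 and 0.428). The other genes of smallest p in lists without a call were EIF2S2, SDF2L1, JDP2, CEBPA, RRAGA, SEC13, GADD45A, VEGFA and ADM, with edgeR adjusted p at 30 mg/kg from 0.203 for JDP2 to 0.904 for CEBPA. Of 6 genes linked to DDIT3, PMAIP1, which encodes the death protein NOXA, rose 1.59-fold at 30 mg/kg (edgeR adjusted p = 0.00307). PMAIP1 was counted in this list and was not among the 18 listed p53 targets, so their count of 0 does not cover it.

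**Figure D5:**
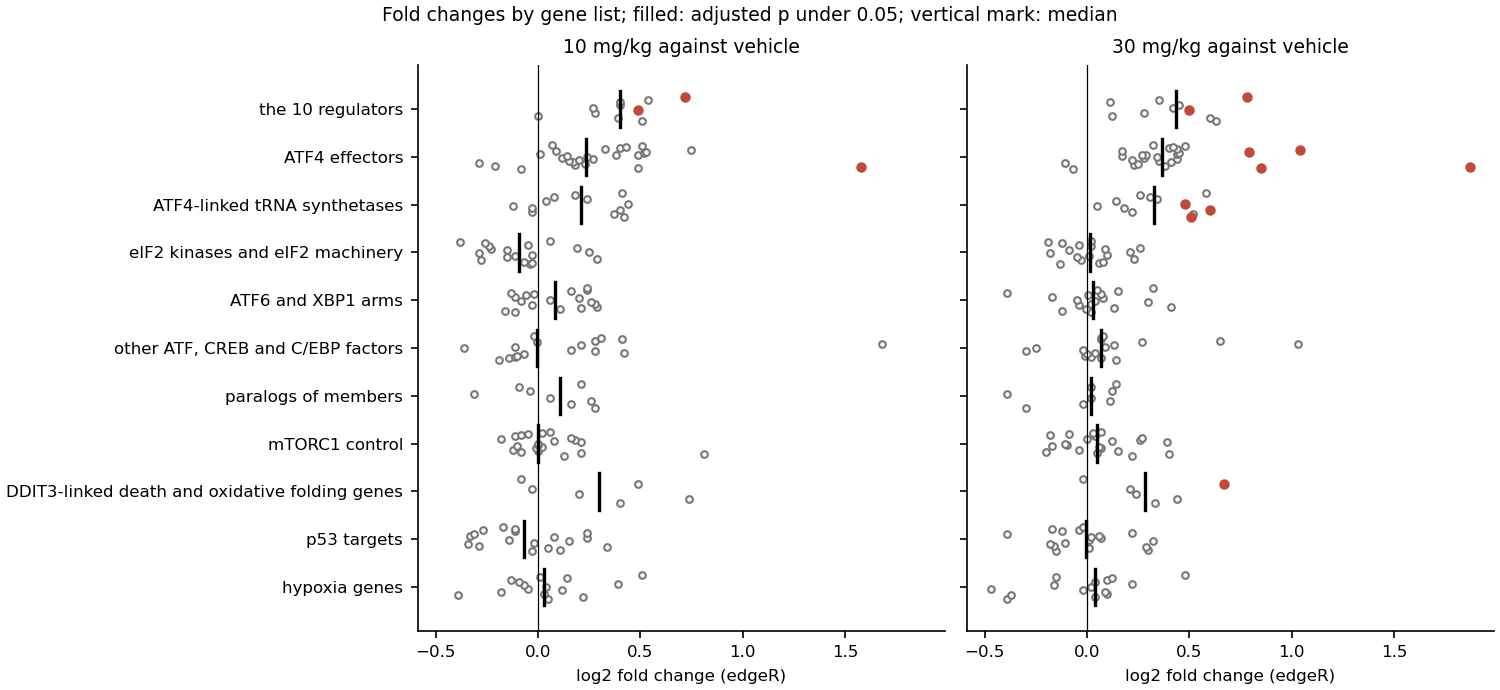
Fitted log2 fold changes (horizontal axes) at 10 and 30 mg/kg for the 10 regulators and 10 gene lists (rows), with genes at an adjusted p under 0.05 filled and the median of each list marked. The medians of the 10 regulators are 0.40 and 0.43, those of the ATF4 effectors 0.23 and 0.36, and those of the ATF6 and XBP1 list 0.09 and 0.03.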

How the data were processed

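RNA was measured in 18 xenograft tumours, 6 per group. Per the labels' protocols, the input was 5 ng of total RNA and the SMARTer kit for stranded, low-input libraries was used. STAR 2.4.2a and the builds hg19 and mm10 are named in the submitters' processing notes. The separation of mouse from human reads, the quantifier and the strand setting are not stated there. Per the file headers, the authors deposited expected counts, the estimated and unscaled number of reads of each gene. The deposited tables also hold TPM, scaled by the authors for transcript length and depth, used here for levels between genes and in 3 alternatives.

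Expected counts were rounded, filtered with filterByExpr on the 3 groups and scaled by TMM. All 18 libraries entered 1 robust quasi-likelihood fit (edgeR 4.0.16, R 4.3.3). Levels are TMM-normalised CPM. Each SE was derived from the log2 fold change and the F statistic of the test. Intervals are 95% on a normal approximation to that SE and are slightly narrow. For CEBPB at 10 mg/kg the interval from 0.01 to 0.56 left out 0, with an edgeR unadjusted p = 0.0571. Alternatives used limma 3.58.1, DESeq2 1.42.0, other filters and scalings, a replicate block, and each library left out. The model was tested on counts simulated at the means of the real genes. It recovered 43.3% of 1.5-fold changes at 10 mg/kg against vehicle and 59.7% at 30 mg/kg. Of 2-fold changes it recovered 91% at each dose. A gene that did not pass can therefore have changed by a fold near 1.5. Symbols matched 25220 genes by ID and 26 by transcript. Promoters are RefSeq windows of GRCh38.p14, found for 10 of the 10 genes. The members and lists were chosen with earlier results of these data known. All 10 regulators are named. Up to 4 genes of smallest p are named per list among those passing, and otherwise at most 2 that did not pass. The likeness rule takes the 5 genes with the highest rho for ATF4, TRIB3, CEBPG and DDIT3.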

Additional observations from a re-analysis of the deposited data

Results flagged for a closer look

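In 5 of 30 combinations of a regulator and a group, 1 library stood far from its 5 companions by Dixon's criterion, which chance alone meets in about 1 group in 20. Of these, 4 were 10 mg/kg replicate 2, the library with 433981 counts. CEBPG had 92.0 CPM there, with the nearest library at 71.6 CPM. TRIB3 had 64.2 CPM, with the nearest at 38.3 CPM. PPP1R15A had 304 CPM, with the nearest at 123 CPM, and SESN2 had 79.1 CPM, with the nearest at 37.3 CPM. These values rested on 43, 30, 142 and 37 reads. In the deposited TPM the same library had the lowest CEBPG value of its group, 31.4 TPM, so its place depends on the scale. The other was DDIT4 in vehicle replicate 3, at 163 CPM with the nearest at 119 CPM, the vehicle library with the highest sum of hypoxia genes.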

How the results depend on the processing

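Over 31 alternatives TRIB3 passed in 29 at 10 mg/kg and 31 at 30 mg/kg, CEBPG in 24 and 30, ATF4 in 0 and 11, and ATF3 in 0 and 5. The causes of the changes below were not tested. Of the 10 regulators, 1 passed at 10 mg/kg with no filter and with limma-trend on log2(TPM + 1) or log2(TPM + 0.1), and 0 with the groups compared alone. At 30 mg/kg 4 passed with DESeq2, limma-voom and limma-voom with sample weights, and 1 with log2(TPM + 1). On the dose trend 0 passed with library totals alone and with both TPM fits, 1 with no filter and with the hypoxia score, and 4 with DESeq2 and sample weights.

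Against 66 genes called at 10 mg/kg, 87 at 30 mg/kg and 69 on the trend, no filter gave 32, 57 and 41, DESeq2 158, 179 and 173, and sample weights 235, 315 and 328. The fits of log2(TPM + 1) gave 12, 23 and 3, and of log2(TPM + 0.1) 11, 26 and 3. With the shallow library left out, chosen after seeing the data, log2(TPM + 1) gave 101, 138 and 107. Groups compared alone gave 36 at 10 mg/kg and 191 at 30 mg/kg.

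Same-numbered libraries did not deviate together (correlations from -0.284 to 0.226). The labels do not say what the numbers stand for, and weak correlations cannot show that the samples are unpaired. The replicate block gave 0 regulators and 24 genes at 10 mg/kg, and 0 and 33 on the trend.

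Leaving out 1 library at a time gave 1 to 2 regulators and 31 to 121 genes at 10 mg/kg, 2 to 4 and 61 to 182 at 30 mg/kg, and 0 to 3 and 31 to 136 on the trend. The largest gene counts were those without 10 mg/kg replicate 2. At 10 mg/kg the lower counts outside 1.5 times came without vehicle replicate 1, 2 or 5 (42, 40 and 31 genes). On the trend they came without vehicle replicate 1, 2, 4, 5 or 6 (31, 38, 39, 37 and 40 genes).

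Among the values printed, signs turned only for ATF5 and for dose differences of CEBPG and TRIB3, none of which passed in any alternative. ATF5 at 10 mg/kg was 0.01 with DESeq2 size factors, library totals, at least 5 CPM in 6 libraries and the groups alone, 0.04 with DESeq2 and 0.02 with the replicate block, and -0.07 to 0.14 with 1 library left out. ATF5 at 30 mg/kg ran from -0.05 to 0.24 with 1 library left out. The dose difference of CEBPG was -0.03 with library totals, -0.0033 with at least 5 CPM, -0.0023 with the replicate block, -0.0049 with the groups alone, and -0.03 to 0.05 with 1 library left out. That of TRIB3 ran from -0.01 to 0.14.

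Depth limits 10 mg/kg replicate 2, in which ATF3 and DDIT3 had 7 reads each.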
